A study of Homo sapiens with 8 samples.

Results

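The heat shock chaperones are a set of 34 gene symbols that were chosen by name, with earlier results of these data known. They are the cytosolic and mitochondrial HSP70, HSP90, HSP60 and HSP10 chaperones, small heat shock proteins, BAG proteins, co-chaperones and heat shock factors. DNAJ proteins and the chaperones of the endoplasmic reticulum were left out by that rule. The 34 symbols matched 35 of the 58735 genes in the deposited table, because HSPA14 names 2 overlapping genes. RNA was measured in 8 libraries of HepG2, an established human hepatocellular carcinoma line: 4 control libraries (genotype label WT, library names that begin pLV_EGFP_NC) and 4 libraries of cells made with a lentivirus to overexpress DNMT3A, a DNA methyltransferase (library names that begin pLV_EGFP_DN). All 8 share the line, the culture medium and the name prefix pLV_EGFP; whether the controls were infected is stated nowhere else in the labels. The sources used here do not give the number of infections or clones per group or the time after infection. The p-values therefore rest on library-to-library spread, part or all of which may be technical.

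HSP70 proteins bind exposed hydrophobic stretches of unfolded proteins and release them in a cycle driven by ATP. Nucleotide exchange factors of the HSP110 and BAG families speed that release, and HSP90 takes over part of the clients with its own co-chaperones. In mitochondria HSPA9, TRAP1 and the chaperonin HSPD1 with its lid HSPE1 fold imported proteins, and small heat shock proteins hold unfolded proteins without ATP. Heat shock factor 1 (HSF1) switches on the inducible genes of this set by binding inverted repeats of the letters GAA, the heat shock elements, and its activity is set largely after translation. Hepatocytes and hepatoma cells express the constitutive members, such as HSPA8, HSP90AB1 and HSPD1, without heat stress.

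The sequences before the transcript starts were searched for exact copies of such repeats. Imperfect copies, and copies outside the window searched, were not counted. A search on both strands used GAANNTTC and TTCNNGAA, each of which reads the same on the other strand, in the 250 bases before each RefSeq start (GRCh38.p14); neighbouring repeats of both kinds can overlap by 3 bases. RefSeq entries were found for 26 of the 34 symbols, with 36 starts. At least 1 repeat was found before 11 of these 36 starts (30.6%), against 11.6% of 35116 starts of all genes. A run of 3 alternating units, which joins both kinds, was found before 5 of the 36 starts and before 0.441% of all starts. These matches are descriptions of letters and were not tested for binding. The 6 sequences below belong to members that rose (HSPA1A, HSPA1B, HSPA8 and CHORDC1) or fell (HSP90AA1 at its inner start, and HSPB1), chosen to show a single repeat beside runs of several. They run 5′ to 3′ on the strand of the gene, with the repeats in capitals. Those of HSPA1A, HSPA1B and HSPB1 run from base -250 to the gene start of the deposited table, and of the other 3 only 1 stretch of clustered repeats is shown.
HSPA1A, chr6:31815293-31815463, plus strand: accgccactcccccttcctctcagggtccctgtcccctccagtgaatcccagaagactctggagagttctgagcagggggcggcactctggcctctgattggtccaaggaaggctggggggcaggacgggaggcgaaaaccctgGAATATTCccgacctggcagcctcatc
HSPA1B, chr6:31827488-31827734, plus strand: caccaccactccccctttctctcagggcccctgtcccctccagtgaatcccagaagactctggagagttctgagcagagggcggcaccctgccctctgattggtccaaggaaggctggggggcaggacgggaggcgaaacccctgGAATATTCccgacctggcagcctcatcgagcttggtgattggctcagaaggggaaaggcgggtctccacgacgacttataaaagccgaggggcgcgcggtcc
HSPA8, chr11:123062179-123062191, minus strand: TTCTGGAAGGTTC
CHORDC1, chr11:90223087-90223109, minus strand: GAAAATTCGCGAAGGTTCCTGAA
HSP90AA1, chr14:102087105-102087132, minus strand: TTCCGGAAGGTTCgggaggcTTCTGGAA
HSPB1, chr7:76302423-76302543, plus strand: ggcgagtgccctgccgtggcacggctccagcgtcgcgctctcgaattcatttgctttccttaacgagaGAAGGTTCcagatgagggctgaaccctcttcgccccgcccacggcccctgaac

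HSPA1A and HSPA1B each held 1 repeat of the same 8 letters, at -106 to -99 and -105 to -98 from the RefSeq start. Their 250-base windows were identical at 235 aligned bases and different at 14 (94.4% identical). HSPA8 held a run of 3 units near its start (-55 to -43) and another at -230 to -218. CHORDC1 held 6 repeats, 4 of them in 1 run at -60 to -38. HSP90AA1 had no repeat before its outer start and 3 before its inner start. Of the matched genes, a repeat was found before 5 of 8 that rose, 2 of 4 that fell, 3 of 12 that did not pass the test and 1 of 2 that were too low to test. Counted by starts, as the 11.6% of all starts was, these were 5 of 10 that rose, 2 of 5 that fell and 3 of 19 that did not pass. HSPA1A and HSPA1B, with nearly the same window, both count among those that rose. CpG pairs, the letters that DNMT3A methylates, numbered 12 to 44 in the members' windows with a median of 18, against a median of 11 over all starts. Methylation was not measured.

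**Figure D1:**
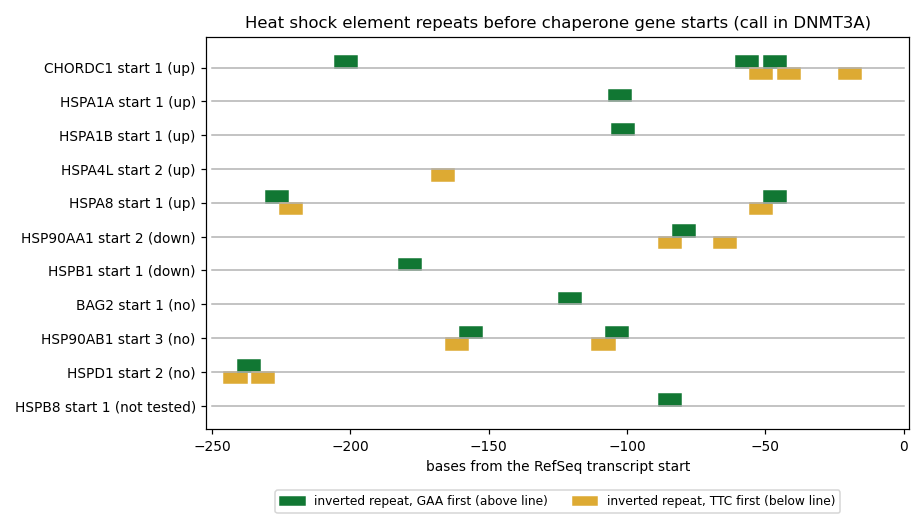
Positions of the GAA and TTC inverted repeats in the 250 bases before the RefSeq starts of the 11 members that hold at least 1, with each gene's call in the DNMT3A libraries in brackets; the x axis is the distance from the start in bases and each block is 1 repeat of 8 bases. CHORDC1 and HSPA8 hold several repeats, HSPA1A and HSPA1B 1 each, and HSP90AB1 and HSPD1, which did not pass the test, hold runs as well.

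Whole reads recovered from the table summed to 15911019 to 17677093 in the controls and 17232809 to 17626137 in the DNMT3A libraries. Mitochondrially encoded genes took 10.1% to 12.7% of reads in the controls and 9.97% to 11.7% in the DNMT3A libraries. All 17 hepatocyte and HepG2 markers had a mean of at least 1 FPKM (fragments per gene length and library total, scaled to kilobases and megareads). Of 8 fibroblast markers only ACTA2 reached that level, of 6 endothelial markers 0 did, and of 9 immune markers only LYZ did. The 9 immune markers summed to 199 to 265 FPKM in the controls and to 315 to 346 FPKM in the DNMT3A libraries. Nearly all of that sum was LYZ, at 196 to 263 FPKM in the controls and 313 to 344 FPKM in the DNMT3A libraries. CD14 went the other way, from a mean of 1.34 FPKM in the controls to 0.652 FPKM in the DNMT3A libraries. The part of these markers in the members' results was not tested. The immune markers PTPRC and CD3E were at 0 in all 8 libraries. DNMT3A was at 3.62, 3.89, 3.45 and 3.64 FPKM in control libraries 1 to 4 and at 9.75, 10.2, 8.51 and 7.26 FPKM in DNMT3A libraries 1 to 4. The groups did not overlap (log2 fold change 1.09, limma adjusted p = 0.000122).

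Inducible HSP70 (HSPA1A and HSPA1B), HSPA8, the exchange factors HSPH1, HSPA4L and BAG3 and the HSP90 partner CHORDC1 were higher in the DNMT3A libraries, as were HSPA13 and 1 of the HSPA14 genes. In the same libraries HSP90AA1, HSPE1, HSPA9, HSPB1 and HSPB11 were lower. Of the 35 member genes 32 had a mean of at least 1 FPKM over the 8 libraries and were tested, and 3 (HSPA2, HSPB8 and CRYAB) were not. In limma on log2(FPKM + 1), with Benjamini-Hochberg adjustment over 11620 genes and a threshold of 0.05, 9 member genes rose (28.1%) and 5 fell (15.6%). Over all tested genes 9.93% rose and 10.6% fell, so the members' share that rose was above the background and the share that fell was near it. The members were chosen with earlier results of these data known, so this comparison cannot show an excess particular to the set. The members' median log2 fold change was 0.04, against -0.01 over all tested genes. The DNMT3A libraries lay above all controls for 9 member genes and below them for 5, against 12.1% and 13% of all tested genes. In bulk RNA fewer cells with a transcript and less of it per cell cannot be told apart. The call held under all 16 alternative settings for 8 of the 9 that rose and for 2 of the 5 that fell, HSPE1 and HSPB11. The 5 became 2 when control library 1, 2 or 3 or DNMT3A library 3 was left out.

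**Figure D2:**
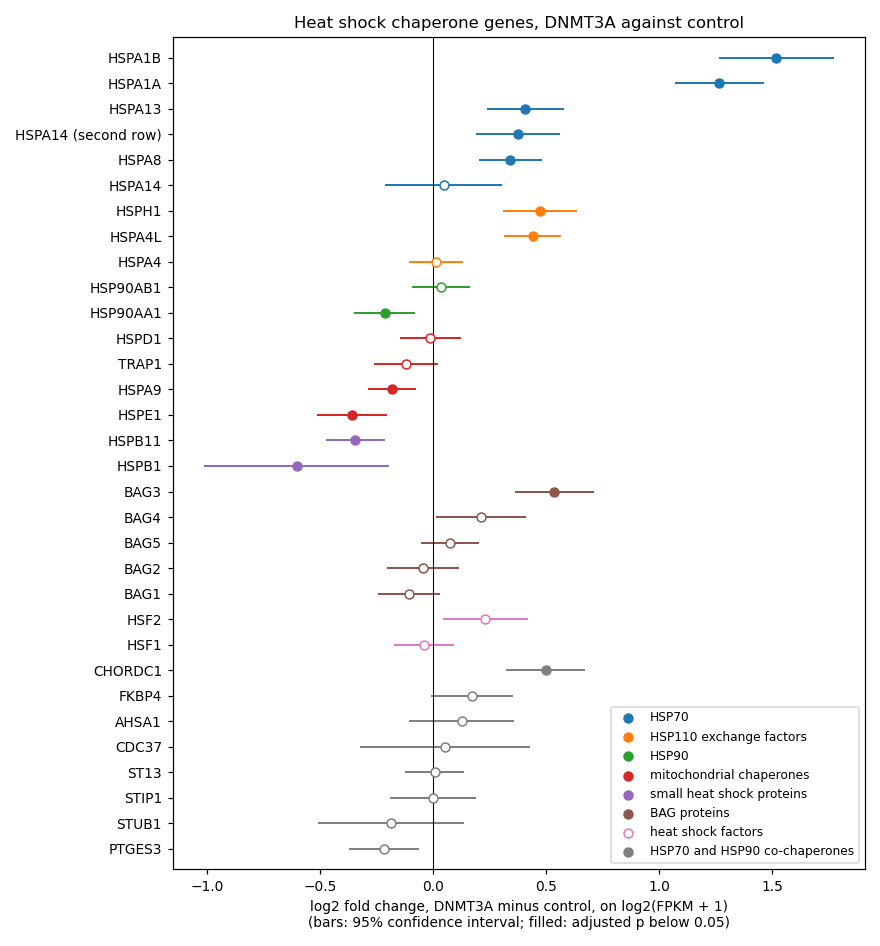
Log2 fold change (DNMT3A over control, computed on log2(FPKM + 1)) of the 32 tested chaperone genes by role, with 95% confidence intervals from limma; filled points passed the adjusted threshold. HSPA1B (1.52) and HSPA1A (1.27) lie far to the right of the other members, which run from -0.60 (HSPB1) to 0.54 (BAG3).

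Among the HSP70 genes the stress-inducible pair changed most. HSPA1A (hg38 chromosome 6, 31815464 to 31817946, plus strand) was at 9.89, 9.31, 9.54 and 9.33 FPKM in control libraries 1 to 4 and at 23.5, 28.3, 25.6 and 20.4 FPKM in DNMT3A libraries 1 to 4. Every DNMT3A library was above every control, and library 2 was the highest. HSPA1A rose 2.57-fold, from 9.52 ± 0.266 to 24.4 ± 3.35 FPKM (SD, n = 4; log2 1.27, SE 0.088; limma adjusted p = 4.76e-05).

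HSPA1B (chromosome 6, 31827735 to 31830255, plus strand) was at 7.10, 7.37, 9.27 and 8.63 FPKM in the controls and at 23.1, 30.7, 25.1 and 21.6 FPKM in the DNMT3A libraries. The groups again did not overlap, and the lowest and highest DNMT3A libraries were the same as for HSPA1A. HSPA1B rose 3.10-fold, from 8.09 ± 1.03 to 25.1 ± 3.95 FPKM (log2 1.52, SE 0.113; limma adjusted p = 5.63e-05). Only 9 of the 11620 tested genes had a larger log2 fold change than HSPA1B, and 23 had a larger one than HSPA1A. The HSPA1A and HSPA1B transcripts share 71.3% of the 50-base stretches of HSPA1A, and how reads that match both were assigned is not given in the sources used here, so the separate values are uncertain. Their sum, which depends less on that split, was 17.0, 16.7, 18.8 and 18.0 FPKM in the controls and 46.6, 58.9, 50.8 and 42.0 FPKM in the DNMT3A libraries, 2.81-fold higher in the mean.

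HSPA8, the constitutive HSC70 of the cytosol, was the most abundant HSP70 of the set. It was at 162, 159, 179 and 165 FPKM in the controls and at 220.5, 214, 212 and 194 FPKM in the DNMT3A libraries. Every DNMT3A library exceeded every control, and HSPA8 rose 1.27-fold (log2 0.34, SE 0.062; limma adjusted p = 0.0056). The sum of HSPA1A and HSPA1B was 10.6% ± 0.198 of the HSPA8 level in the controls and 23.5% ± 2.91 in the DNMT3A libraries (SD, n = 4). Both percentages may be too low if reads that match both HSPA1A and HSPA1B were not counted. On the log2 scale that ratio differed by 1.14 between the groups. The exact permutation test, two-sided, gave p = 0.0286, and 0.0286 again after Benjamini-Hochberg adjustment over 4 ratios. No smaller p can come from 70 assignments of the libraries. The 4 ratios were chosen with earlier results of these data known, so their p-values, here and below, are not independent support for a difference.

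HSPA13, an HSP70 of the microsomal fraction that lacks the peptide-binding domain, was at 12.1, 12.9, 12.2 and 12.0 FPKM in the controls and at 18.1, 14.1, 16.7 and 17.9 FPKM in the DNMT3A libraries. DNMT3A library 2 was the lowest of its group and still above all controls. HSPA13 rose 1.36-fold (log2 0.41, SE 0.077; limma adjusted p = 0.00624).

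HSPA14, the HSP70 of a ribosome-associated complex, is given by 2 genes that share 460 exon bases on the same strand. The longer locus (ENSG00000187522) was at 6.39, 8.50, 7.86 and 6.19 FPKM in the controls and at 7.13, 6.84, 6.81 and 9.25 FPKM in the DNMT3A libraries; the groups overlapped (log2 0.05, limma adjusted p = 0.805). The shorter one (ENSG00000284024) was at 3.85, 4.98, 4.62 and 3.88 FPKM in the controls and at 6.28, 6.22, 5.41 and 5.69 FPKM in the DNMT3A libraries. It rose (log2 0.38, SE 0.083; limma adjusted p = 0.0124), and its call ended without DNMT3A libraries 2 and 4 (limma adjusted p = 0.059). Reads of the shared exons cannot be told apart between these loci.

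Of the HSP110 exchange factors, which also keep unfolded proteins soluble, HSPH1 and HSPA4L rose and HSPA4 did not pass the test. HSPH1 (HSP105) was at 17.4, 20.8, 20.5 and 19.7 FPKM in the controls and at 26.0, 26.6, 27.4 and 30.4 FPKM in the DNMT3A libraries. The groups did not overlap, and HSPH1 rose 1.41-fold (log2 0.47, SE 0.073; limma adjusted p = 0.00253). HSPH1 lies on chromosome 13 (31134974 to 31162388, minus strand). Over that whole chromosome the median log2 fold change of 199 tested genes was -0.15, and 9 rose against 66 that fell. HSPH1 held no exact heat shock repeat in the window searched, and none of its 50-base stretches occurred in another gene's transcripts.

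HSPA4L was at 4.72, 5.01, 5.24 and 5.41 FPKM in the controls and at 7.39, 7.04, 7.12 and 7.51 FPKM in the DNMT3A libraries. Both groups were tight and apart, and HSPA4L rose 1.43-fold (log2 0.44, SE 0.056; limma adjusted p = 0.000984). HSPA4, the most abundant of this subfamily, was at 54.3, 60.4, 58.5 and 53.9 FPKM in the controls and at 57.2, 56.6, 57.4 and 57.8 FPKM in the DNMT3A libraries. All 4 DNMT3A values lay within the range of the controls, and the 95% interval of its log2 fold change was -0.11 to 0.13. The log2 ratio of HSPH1 to HSPA4 was -1.54 ± 0.081 in the controls and -1.06 ± 0.091 in the DNMT3A libraries, a difference of 0.48 (exact permutation test, two-sided, p = 0.0286, adjusted 0.0286).

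**Figure D3:**
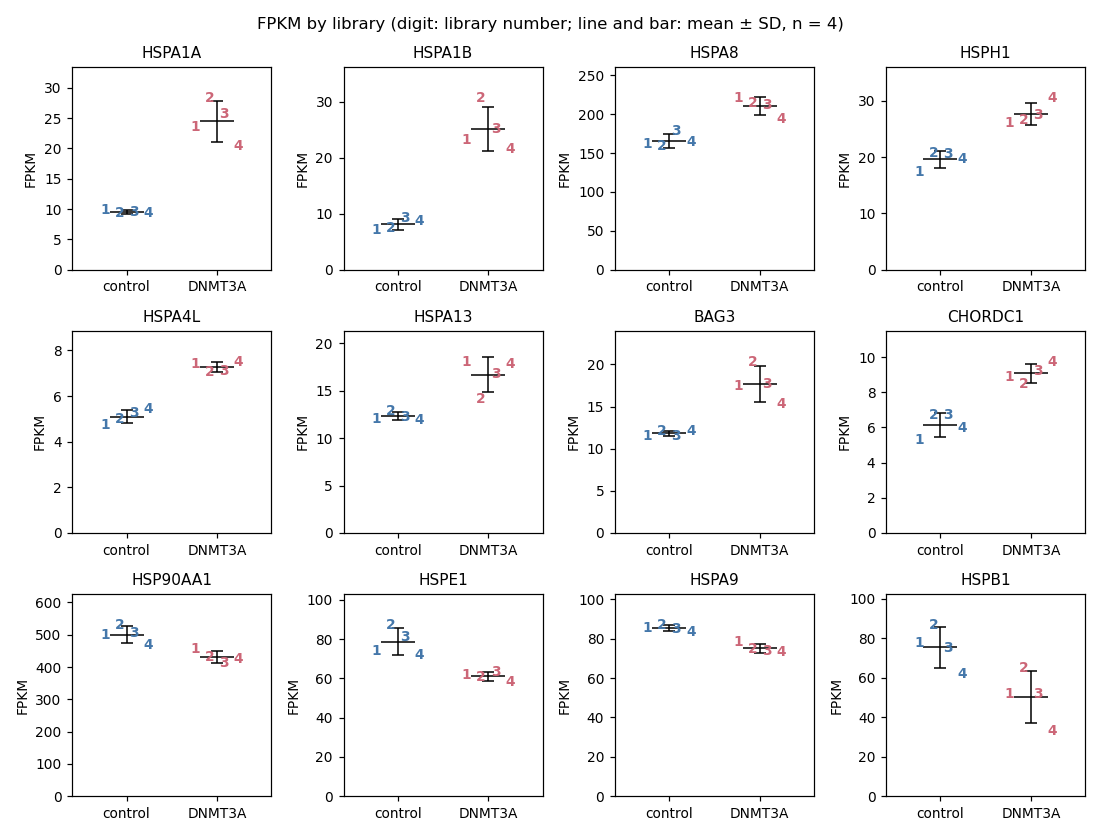
FPKM of 12 chaperone genes in each library, with the library number as the point and the mean ± SD of 4 libraries per group as the line and bar; every y axis starts at 0. The DNMT3A libraries lie above all controls for the 8 genes from HSPA1A to CHORDC1 and below them for HSP90AA1, HSPE1 and HSPA9, while for HSPB1 DNMT3A library 2 overlaps control library 4.

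HSP90AB1 was the most abundant member, and HSP90AA1 came after HSPD1. The cytosolic HSP90 genes moved apart slightly. HSP90AB1, the constitutive form, was at 1142, 1231, 1153 and 1159 FPKM in the controls and at 1219, 1214, 1218 and 1154 FPKM in the DNMT3A libraries. These ranges overlapped, and the 95% interval of its log2 fold change was -0.09 to 0.17 (limma adjusted p = 0.687). HSP90AA1, the inducible form, was at 498, 531, 504 and 468 FPKM in the controls and at 455, 432, 411 and 426 FPKM in the DNMT3A libraries. All DNMT3A libraries were below all controls, and HSP90AA1 fell to 0.862 times the control mean (log2 -0.21, SE 0.061; limma adjusted p = 0.0351). That call ended under 9 of 16 alternatives, among them the removal of any of control libraries 1, 2 and 3 or of DNMT3A library 3 or 4, with limma adjusted p-values between 0.0542 and 0.101.

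HSP90AA1 lies on chromosome 14. Over that whole chromosome the median log2 fold change of 395 tested genes was 0.10, and 118 rose against 29 that fell. The near neighbours of HSP90AA1 were not examined apart from the rest. The ratio of HSP90AA1 to HSP90AB1 does not depend on the library total. It was -1.20, -1.21, -1.19 and -1.31 on the log2 scale in the controls and -1.42, -1.49, -1.57 and -1.44 in the DNMT3A libraries. The groups did not overlap, and the difference was -0.25 (exact permutation test, two-sided, p = 0.0286, adjusted 0.0286). HSP90AB1 was 2.34 ± 0.0888 times as high as HSP90AA1 in the controls and 2.79 ± 0.128 times in the DNMT3A libraries (SD, n = 4). Annotated processed pseudogenes named after HSP90AB1 and HSP90AA1 held at most 0.371% as many reads as their parents in any library.

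CHORDC1, an HSP90-binding protein of the CHORD family, was the 1 member that rose among 8 co-chaperones. It was at 5.26, 6.68, 6.69 and 5.96 FPKM in the controls and at 8.85, 8.47, 9.22 and 9.75 FPKM in the DNMT3A libraries. The groups did not overlap, and CHORDC1 rose 1.48-fold (log2 0.50, SE 0.078; limma adjusted p = 0.00278).

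PTGES3 (p23), which stabilises the closed form of HSP90, was at 176, 193, 178 and 172 FPKM in the controls and at 153, 139, 158 and 169 FPKM in the DNMT3A libraries. The groups did not overlap, but the gene missed the threshold (log2 -0.22, limma adjusted p = 0.0549). It passed with array weights (limma adjusted p = 0.0203), with voom (0.047) and without DNMT3A library 4 (0.0264).

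The other 6 co-chaperones had overlapping groups. STIP1 (HOP), which links HSP70 to HSP90, was at 75.2, 74.5, 75.1 and 69.0 FPKM in the controls and at 75.8, 83.0, 74.5 and 61.7 FPKM in the DNMT3A libraries, so the DNMT3A libraries lay on both sides of the controls. CDC37, which brings kinases to HSP90, was at 36.6, 32.8, 30.9 and 28.8 FPKM in the controls and at 35.0, 46.4, 32.3 and 23.6 FPKM in the DNMT3A libraries. Its 95% interval of -0.32 to 0.43 on the log2 scale was the widest of the set after that of HSPB1. FKBP4, an immunophilin of steroid receptor complexes, had a log2 fold change of 0.17 (limma adjusted p = 0.16), and passed with array weights (0.0294) and without DNMT3A library 4 (0.0304).

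AHSA1, which stimulates the ATPase of HSP90, ranged from 30.9 to 38.4 FPKM in the controls and from 32.4 to 44.8 FPKM in the DNMT3A libraries (log2 0.13). ST13 (HIP), which slows release from HSP70, ranged from 81.9 to 92.1 and from 82.1 to 91.9 FPKM (log2 0.01, 95% interval -0.12 to 0.14). STUB1 (CHIP), a ubiquitin ligase that binds HSP70 and HSP90, ranged from 5.69 to 8.97 and from 4.98 to 7.62 FPKM (log2 -0.19, limma adjusted p = 0.389). JMJD8 overlaps 42.4% of the exon bases of STUB1 on the opposite strand, and the library protocol names no step that marks strand, so reads there cannot be told apart.

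In mitochondria the chaperonin lid fell and its barrel did not pass the test. HSPE1 (HSP10) was at 74.0, 87.3, 81.3 and 72.1 FPKM in the controls and at 61.7, 60.8, 63.3 and 58.2 FPKM in the DNMT3A libraries. All DNMT3A libraries were below all controls, and HSPE1 fell to 0.776 times the control mean (log2 -0.36, SE 0.068; limma adjusted p = 0.00683). HSPD1 (HSP60), which lies on the opposite strand to HSPE1 on chromosome 2, was at 733, 753, 684 and 676 FPKM in the controls and at 726, 675, 719.8 and 701 FPKM in the DNMT3A libraries. These groups overlapped (log2 -0.01, 95% interval -0.15 to 0.12).

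HSPD1 was 9.08 ± 0.685 times as high as HSPE1 in the controls and 11.6 ± 0.413 times in the DNMT3A libraries (SD, n = 4). The log2 ratio was 3.31, 3.11, 3.07 and 3.23 in the controls and 3.55, 3.47, 3.51 and 3.59 in the DNMT3A libraries, a difference of 0.35 (exact permutation test, two-sided, p = 0.0286, adjusted 0.0286). The annotated exons of these genes overlap by 281 bases on opposite strands, which is 14.2% of the exon bases of HSPE1, and reads there cannot be told apart. Pseudogenes named after HSPE1 held 2.29% as many reads as HSPE1 in the controls and 2.98% in the DNMT3A libraries, as group means.

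HSPA9 (mortalin), the HSP70 that pulls proteins into the mitochondrial matrix, was at 85.6, 87.1, 85.1 and 83.4 FPKM in the controls and at 78.3, 74.6, 74.0 and 73.5 FPKM in the DNMT3A libraries. The spread within each group was small and the groups did not overlap. HSPA9 fell to 0.880 times the control mean (log2 -0.18, SE 0.047; limma adjusted p = 0.0249). The call ended under 7 of 16 alternatives, among them the removal of any of control libraries 1, 2 and 3 or of DNMT3A library 3, with limma adjusted p-values between 0.0577 and 0.0759. TRAP1, the mitochondrial HSP90, ranged from 17.9 to 19.5 FPKM in the controls and from 15.4 to 18.1 FPKM in the DNMT3A libraries and did not pass (log2 -0.12, limma adjusted p = 0.205). DNASE1 overlaps 29.3% of its exon bases on the opposite strand.

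**Figure D4:**
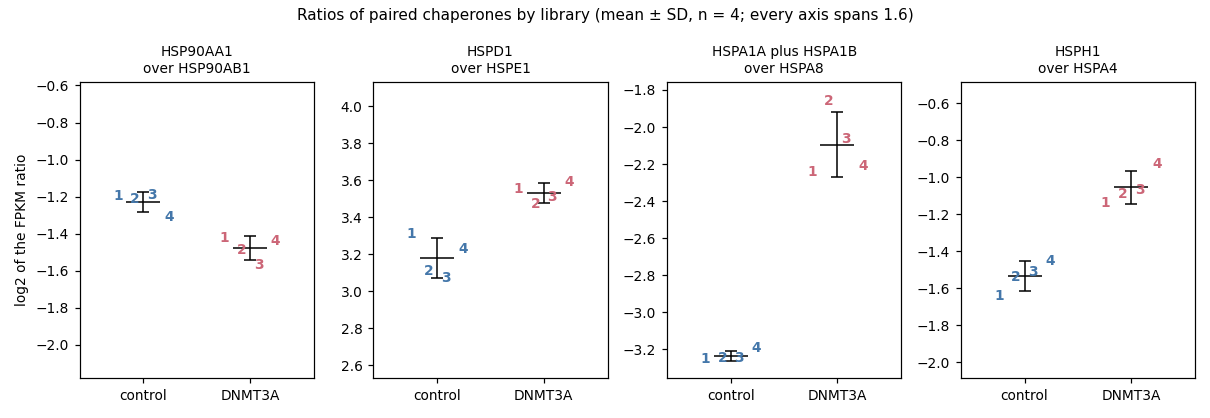
Log2 ratio of FPKM for 4 pairs of chaperones in each library, with the library number as the point and the mean ± SD of 4 libraries as the line and bar; each panel spans the same 1.6 log2 units at its own level. No pair has overlapping groups, and the difference is largest for the sum of HSPA1A and HSPA1B over HSPA8 (1.14).

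The 4 ratios were chosen with earlier results of these data known, and a ratio shows unequal change of its members, not which of them changed.

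The small heat shock proteins held the largest fall of the set and some of its lowest genes. HSPB1 (HSP27), an ATP-independent chaperone that also binds actin, was at 77.7, 86.8, 75.0 and 62.0 FPKM in the controls and at 52.0, 64.9, 51.7 and 32.8 FPKM in the DNMT3A libraries. DNMT3A library 4 was far below the rest and library 2 overlapped control library 4. HSPB1 fell to 0.668 times the control mean, from 75.4 ± 10.3 to 50.3 ± 13.2 FPKM (log2 -0.60, SE 0.182; limma adjusted p = 0.0433). Its call ended under 7 of 16 alternatives, among them the removal of any of control libraries 1, 2 and 3 or of DNMT3A library 1 or 3, with limma adjusted p-values between 0.0758 and 0.112.

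HSPB11, named with this family but known as the ciliary transport subunit IFT25, was at 9.68, 9.66, 10.00 and 9.57 FPKM in the controls and at 6.82, 7.90, 7.91 and 7.24 FPKM in the DNMT3A libraries. The controls were tight and all above the DNMT3A libraries. HSPB11 fell to 0.768 times the control mean (log2 -0.34, SE 0.058; limma adjusted p = 0.00402).

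CRYAB (alpha B crystallin), which muscle and lens express strongly, was covered by 3 to 10 reads per library in the controls and 10 to 18 in the DNMT3A libraries (25 against 52 in all). HSPB8, the small heat shock protein that works with BAG3, was covered by 5 to 20 reads in any library. HSPA2, an HSP70 best known from testis, was covered by 0 to 8 reads. All 3 had a mean below 1 FPKM, and none passed the threshold in the limma fit without a filter, on log2(FPKM + 1), a scale that understates differences at such levels.

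BAG3 was the 1 member of 5 BAG proteins that rose. It is an HSP70 exchange factor that HSF1 induces and that directs clients to autophagy. BAG3 was at 11.5, 12.1, 11.5 and 12.1 FPKM in the controls and at 17.4, 20.3, 17.7 and 15.3 FPKM in the DNMT3A libraries. The controls lay within a narrow range and the DNMT3A libraries were all above it. BAG3 rose 1.496-fold, from 11.8 ± 0.329 to 17.7 ± 2.08 FPKM (log2 0.54, SE 0.078; limma adjusted p = 0.00197).

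The other BAG proteins, which share the domain that binds the HSP70 ATPase, did not pass. BAG4 ranged from 9.70 to 12.4 FPKM in the controls and from 11.5 to 14.4 FPKM in the DNMT3A libraries (log2 0.21, limma adjusted p = 0.124). BAG5 had a log2 fold change of 0.08, BAG1 of -0.11 and BAG2, which inhibits the ligase STUB1, of -0.04. RAB23 overlaps 42.7% of the exon bases of BAG2 on the opposite strand, so reads there cannot be told apart.

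HSF1, the main regulator of the heat response, was at 14.4, 13.6, 14.5 and 13.1 FPKM in the controls and at 12.6, 14.3, 13.9 and 13.3 FPKM in the DNMT3A libraries. Its groups overlapped, and the 95% interval of its log2 fold change was -0.17 to 0.09. HSF2, which forms trimers with HSF1, was at 9.22, 10.6, 10.2 and 10.4 FPKM in the controls and at 12.2, 10.1, 13.1 and 13.0 FPKM in the DNMT3A libraries. DNMT3A library 2 lay within the controls and the other 3 above them, and the gene did not pass (log2 0.23, limma adjusted p = 0.0784). HSF2 passed without DNMT3A library 2 (limma adjusted p = 0.0102), with array weights (0.00886) and with voom (0.0453).

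**Figure D5:**
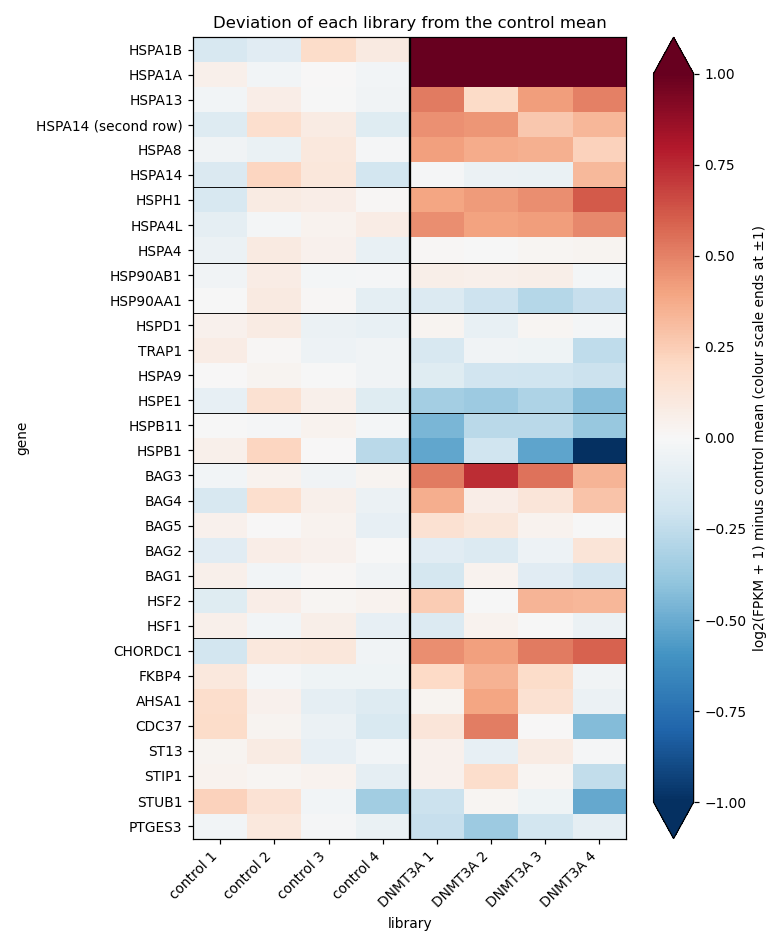
Deviation of each library from the control mean for the 32 tested chaperone genes, on the log2(FPKM + 1) scale; columns are libraries, rows are genes grouped by role, and the colour scale ends at 1 in either direction. HSPA1A and HSPA1B exceed the scale in all 4 DNMT3A libraries, while STIP1, CDC37 and AHSA1 are highest in library 2 and lowest in library 4 of the DNMT3A group.

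Within the DNMT3A group, library 2 was the highest and library 4 the lowest for 10 of the 32 tested genes (31.2%), against 19.6% of all tested genes. They were HSPA1A, HSPA1B, BAG3, HSPB1, TRAP1, STIP1, AHSA1, FKBP4, CDC37 and STUB1, and DNMT3A itself had the same extremes. HSPB1 is among them although it fell, and a link to the DNMT3A level was not tested. The opposite extremes were found for 5 members (15.6%), against 17.1% of all tested genes. Without these 2 libraries, a choice made after the data were seen, 9 members rose and 3 fell: HSF2 passed, and HSPA14 (ENSG00000284024), HSP90AA1 and HSPA9 lost their calls. Of 67 tested genes of related chaperone lists, 8 rose and 2 fell without both libraries, against 7 and 4 with them.

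Summed over all 35 genes, the chaperones stood at 3451 ± 130 FPKM in the controls and at 3437 ± 81.3 FPKM in the DNMT3A libraries (SD, n = 4). HSP90AB1 and HSPD1 made up 33.95% and 20.6% of that sum in the controls and 35.0% and 20.5% in the DNMT3A libraries. HSPA1A and HSPA1B together made up 0.511% ± 0.0422 in the controls and 1.44% ± 0.195 in the DNMT3A libraries. The pair with the largest fold changes thus held a small share of the summed chaperone FPKM as deposited. That share may be too low if reads that match both genes were not counted.

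Related genes outside the set were counted from 5 lists with 80 genes, of which 67 were tested. Of these 7 rose (10.4%) and 4 fell (5.97%), against 9.93% and 10.6% of all tested genes, and their median log2 fold change was 0.00. The 4 became 0 when control library 2 or 3 or DNMT3A library 3 was left out, 1 without DNMT3A library 1 and 2 without control library 4. A list of textbook heat-inducible genes was chosen with earlier results known, so its share that rose cannot show an excess. Of its 16 tested genes 5 rose (31.25%, against 9.93% of all tested genes), 0 fell and 11 did not pass. Those that rose were DNAJB4 (log2 0.90), FOS (log2 0.79), DNAJB1 (log2 0.54), MAFG (log2 0.51) and ATF3 (log2 0.34, named after its value was seen). DNAJB1, the HSP40 that feeds clients to HSP70, stood at 32.6 ± 2.40 FPKM in the controls and at 48.0 ± 5.32 FPKM in the DNMT3A libraries (limma adjusted p = 0.00278). UBB, which encodes ubiquitin, did not pass (log2 -0.00).

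Over all tested genes 9.93% rose and 10.6% fell, and the shares of the lists in this paragraph were not tested against these. Of 14 tested subunits of the cytosolic chaperonin TRiC and of prefoldin, VBP1 (log2 -0.27) and CCT4 (log2 -0.21) fell (14.3%) and 0 rose. CCT3 (log2 0.00) and CCT6A (log2 -0.12) did not pass. Of 16 further co-chaperones CDC37L1, a relative of CDC37, rose (log2 0.50) and SUGT1 fell (log2 -0.21), which is 6.25% each way. SUGT1 lies on chromosome 13, as HSPH1 does. SGTA (log2 -0.17) and TOMM34 (log2 0.03) did not pass. Of 13 mitochondrial folding factors and proteases GRPEL2, an exchange factor for HSPA9, rose (log2 0.42, 7.69% of the list) and 0 fell. The proteases LONP1 (log2 -0.23) and YME1L1 (log2 -0.09) did not pass. Of 9 tested family members outside the set HSPBP1, which promotes exchange on HSP70, fell (log2 -0.20, 11.1% of those tested) and 0 rose. The endoplasmic reticulum chaperones HSPA5 (log2 -0.01) and HSP90B1 (log2 0.19) did not pass.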

How the data were processed

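Poly(A) RNA of 8 HepG2 libraries was sequenced. The submitters' processing notes name HISAT2 2.0.5 and hg38; no counting program is named in the sources used here. The authors deposited FPKM per gene, 1 column per library, which divides by gene length and a library total. Groups and numbers were taken from the sample titles. The product of FPKM and gene length came in whole steps in each library (100% of values, within 0.01 of a read), and these steps served as reads for depth and for voom.

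Genes with a mean of at least 1 FPKM (11620 of 58735) were compared as log2(FPKM + 1) with limma 3.58.1 in R 4.3.3 (variance trend, Benjamini-Hochberg threshold 0.05), after testing on simulated data. A fold change on that log scale understates low genes; folds in the text are ratios of mean FPKM. For ratios the exact permutation test over libraries was used, two-sided. Named genes were DNMT3A, all 34 members and, per related list, up to 4 called genes with the largest change and 2 others with the highest mean; 1 gene that this rule names is not reported here. The members and lists were chosen with earlier results of these data known. Same-numbered libraries were not treated as pairs. Alternatives were another pseudocount (0.1), no filter, 2 other scalings, array weights, a replicate block, voom and leaving out each library; leaving out DNMT3A libraries 2 and 4 together was added after seeing the data. Exon overlaps and shared 50-base stretches came from GENCODE 29, promoters from RefSeq.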

Additional observations from a re-analysis of the deposited data

Results flagged for a closer look

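Of 80 groups of 4 libraries examined over the members, DNMT3A and the 4 ratios, 4 held a library whose gap to the nearest other took up more of the group's range than Dixon's 95% critical value allows, and chance alone gives about 1 in 20. HSPA14 (ENSG00000187522) was at 9.25 FPKM in DNMT3A library 4 and at 6.81 to 7.13 FPKM in the other 3. HSP90AB1 was at 1154 FPKM in DNMT3A library 4 and at 1214 to 1219 FPKM in the other 3. STIP1 was at 69.0 FPKM in control library 4 and at 74.5 to 75.2 FPKM in the other 3. The log2 ratio of HSPA1A plus HSPA1B to HSPA8 was -3.20 in control library 4 and -3.25 in the other 3 controls.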

How the results depend on the processing

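The count of members that rose was 9 to 11 under the 16 alternatives, against 9. The count that fell, 5, was 3 without a filter, 2 with quantile normalization, 3 with the replicate block, 3 without DNMT3A libraries 2 and 4, and 2 to 5 when 1 library was left out (2 without control library 1, 2 or 3 or DNMT3A library 3). Among related genes the count that rose, 7, was 11 with array weights. The count that fell, 4, was 10 with array weights, 1 when genes were not filtered, 1 with quantile normalization, 0 with the replicate block, 2 without DNMT3A libraries 2 and 4, and 0 to 5 when 1 library was left out (0 without control library 2 or 3 or DNMT3A library 3, 1 without DNMT3A library 1 and 2 without control library 4). With the block the 4 log2 ratios (-0.25, 0.35, 1.14 and 0.48) had a p of 0.125, the smallest that 4 pairs allow. Same-numbered libraries did not pair: their deviations correlated at 0.159, -0.0816, -0.0248 and 0.0978. HSP90AA1 (limma adjusted p = 0.0694) and HSPA9 (0.0757) lost their calls with the block, and no other member's call changed with it. With quantile normalization HSP90AA1 (limma adjusted p = 0.15), HSPA9 (0.125) and HSPB1 (0.0584) lost theirs, and without a filter HSP90AA1 (0.138) and HSPB1 (0.147). The cause of these changes was not tested. Some settings also bring a smaller number of samples or a larger number of genes, and the part these played was not tested. Members near a log2 of 0 changed sign without passing the threshold: HSPD1 with median-ratio scaling (3.52e-05), array weights (0.0233), voom (0.0116) and without DNMT3A libraries 2 and 4 (0.0241); STIP1 with the same settings (0.010, 0.0069, 0.0219 and 0.0332) and with quantile normalization (0.0913); and HSPA14 with array weights (-0.0475) and without DNMT3A libraries 2 and 4 (-0.0375). When 1 library was left out the log2 fold change ran from -0.0454 to 0.120 for HSPA14, -0.00977 to 0.0443 for HSPA4, -0.0356 to 0.0167 for HSPD1, -0.0602 to 0.0806 for STIP1, -0.102 to 0.214 for CDC37 and -0.0198 to 0.0372 for ST13.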
